A study of Homo sapiens with 6 samples.

Results

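The genes described here encode enzymes that cut the extracellular matrix or proteins at the cell surface, and the inhibitors that hold these enzymes in check. They are 9 genes, found by their symbols among the 50868 genes of the deposited table, namely MMP2, MMP14 and MMP15, TIMP1, TIMP2 and TIMP3, PLAU, PLAUR and ADAM10. They form a functional group, and the rule that chose them used names and no measured value, although earlier results of these data were known. Reads were counted for 8 of the 9, and these 8 also passed the filter on low counts that left 15055 genes for testing.

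Matrix metalloproteases are zinc-dependent enzymes that are made as inactive precursors. MMP14 and MMP15 are anchored in the cell membrane, and MMP14 activates the secreted gelatinase MMP2 at the cell surface in a complex that includes TIMP2. The TIMP proteins block the active sites of metalloproteases. PLAU, the urokinase plasminogen activator, turns plasminogen into plasmin while bound to its receptor PLAUR, and ADAM10 is a membrane protease that sheds the outer parts of other membrane proteins. In liver tumors these systems are known for their part in the passage of cells through matrix, the process that an invasion assay through a matrix-coated filter measures.

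Total RNA of Huh7, an established human hepatoma cell line, was sequenced 48 hours after transfection with Lipofectamine 2000. In 3 libraries the cells had received a plasmid that overexpresses hsa_circ_0098181, a circular RNA made from exons of SOX5, and in 3 libraries the control plasmid. Both groups thus share the cell line, the transfection reagent and the time. The study assayed invasion and migration of such cells, so the question asked of these libraries was whether transcripts of matrix proteases or their inhibitors differed with the circular RNA.

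The labels were checked first with SOX5, the host gene of the circle. It stood at 1905, 2396 and 2012 CPM (counts scaled to library size) in overexpression replicates 1 to 3, against 41.8, 34.4 and 31.3 CPM in control replicates 1 to 3. The cell type was checked with a list of 8 hepatocyte and hepatoma markers, all of which had reads, and their summed level was 29708 to 32650 CPM with overexpression and 28972 to 34906 CPM in control libraries. The list of 4 endothelial markers summed to 54.4 to 55.6 CPM against 46.9 to 59.2 CPM, nearly all of it PECAM1, with CDH5 at 0 in all libraries and VWF and KDR at 1 count each in total. A list of 7 fibroblast and stellate cell markers summed to 23.1 to 26.4 CPM against 23.5 to 26.1 CPM. The list of 5 leukocyte markers summed to 492 to 535 CPM against 440 to 477 CPM, most of it from LYZ, which these hepatoma libraries held at means of 497 and 449 CPM, and its TYROBP had no count in any library. The part of these markers in the values given here was not tested. Library totals were 12261725 to 14138262 counts with overexpression and 11130902 to 12211132 in control libraries. Mitochondrial genes took 9.29% of the counts in control replicate 1 and 6.32% to 7.04% in the other 5 libraries, and values without control replicate 1 are given for the members whose direction turned without it.

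None of these genes passed the test of overexpression against control. At an adjusted p under 0.05, edgeR's quasi-likelihood test called 0 of the 8 tested genes, against 0.0399% of all genes tested. The number at an unadjusted p under 0.05 was also 0 of 8, where 5.5% of all genes tested reached it, and DESeq2 on all 8 and limma on the 4 it could test likewise gave 0 at either threshold. The 3 values of each group overlapped for all 8 genes, while they did not overlap for 12.9% of all genes tested. 3 of the 8 genes had a positive and 5 a negative log2 fold change, with a median of -0.13 beside 0.0023 over all genes tested. In RNA from whole cultures, fewer cells that express a gene and less RNA per cell cannot be told apart.

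**Figure D1:**
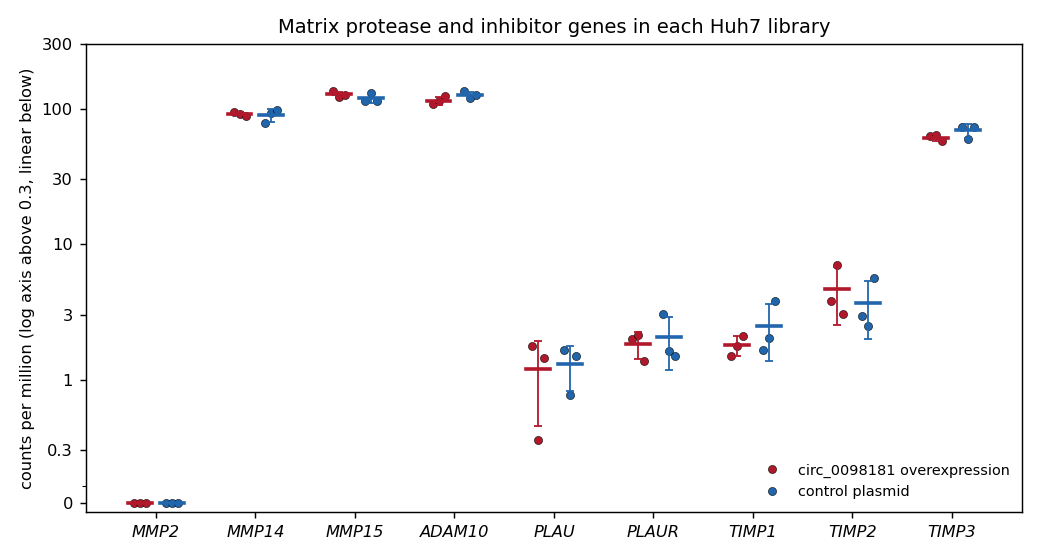
Level in CPM of the 9 genes in the 6 libraries, on an axis that is logarithmic above 0.3 and linear below. Points are libraries, thick bars are group means and thin bars are 1 SD (n = 3 each). MMP14, MMP15, ADAM10 and TIMP3 lie between 57.2 and 134 CPM, PLAU, PLAUR, TIMP1 and TIMP2 between 0.357 and 7.07 CPM, and MMP2 at 0, with the groups overlapping for each of the other 8.

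Because the study examined the circle as a sponge for miR-18a-3p, the 3′ UTRs of the 9 genes were searched for matches to the seed of this microRNA, bases 2 to 8 of its mature sequence. The mature sequence (RefSeq, GRCh38.p14) is shown with the seed in capitals, followed by the stretch around each match, so that the members with and without these letters can be set beside their values. A match was the letters AGGGCAG on the transcribed strand, searched in the 3′ UTR of the transcript with the longest coding sequence in GENCODE 29 (GRCh38), and it is in capitals in each stretch.
hsa-miR-18a-3p: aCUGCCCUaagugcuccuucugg
MMP2 site, chr16:55505843-55505871, plus strand: acagcctggcacAGGGCAGtgggacaggg
MMP14 site, chr14:22847134-22847162, plus strand: gaggggaagggtAGGGCAGccagagaaag
TIMP2 site 1, chr17:78855301-78855329, minus strand: cccagctgggttAGGGCAGggcctggaaa
TIMP2 site 2, chr17:78855090-78855118, minus strand: cccccacatccaAGGGCAGcctggaacca
TIMP2 site 3, chr17:78853997-78854025, minus strand: acttccctttctAGGGCAGactgggaggg
PLAU site 1, chr10:73916840-73916868, plus strand: caggagttaaaaAGGGCAGggcatctcct
PLAU site 2, chr10:73917024-73917052, plus strand: actaacgacttcAGGGCAGggctctgata

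Matches were found in 4 of the 9 genes, 1 each in MMP2 and MMP14, 2 in PLAU and 3 in TIMP2. Among 12363 coding genes that were tested and have a 3′ UTR, 16.4% held at least 1 match. The remaining 5 genes had none. Their 3′ UTRs were 8740 bases long in ADAM10, 3666 in TIMP3, 1455 in MMP15, 310 in PLAUR and 98 in TIMP1. Those of the genes with a match were 2690 bases long in TIMP2, 1722 in MMP14, 1249 in MMP2 and 932 in PLAU. The median over the 12363 genes, which do not include the untested MMP2, was 993 bases. Of the genes with a match, MMP14 had a log2 fold change of 0.034, TIMP2 of 0.34 and PLAU of -0.13, and MMP2 had no reads. None of the 3 that could be tested passed an adjusted p under 0.05, and they lay in both directions from 0. A match is a description of these letters and not evidence of a bound site.

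The membrane-bound metalloproteases MMP14 and MMP15 had the highest levels of the group per kilobase of exon. MMP14 (ENSG00000157227, chr14:22836557-22849027, plus strand, hg38) had 1327, 1287 and 1100 counts with overexpression and 847, 1081 and 1190 counts in control libraries. Scaled to library size, these were 93.9, 91.8 and 88.9 CPM against 78.2, 92.1 and 97.9 CPM. The overexpression libraries all lay inside the range of the control libraries. The means were 91.6 ± 2.54 and 89.4 ± 10.1 CPM (SD, n = 3 each), and edgeR estimated a log2 fold change of 0.034 (standard error 0.10, adjusted p 0.951). Its 95% interval ran from a fold of 0.868 to 1.21. The direction depended on control replicate 1, the lowest value, and without it the log2 fold change was -0.051.

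MMP15 (ENSG00000102996, chr16:58025566-58046901, plus strand) had 134, 123 and 126 CPM with overexpression and 114, 130 and 114 CPM in control libraries. Control replicate 2 lay among the overexpression libraries and the other 2 control libraries lay below them. For this gene edgeR estimated 0.097 on the log2 scale (standard error 0.092, adjusted p 0.837), and the 95% interval of the fold was 0.923 to 1.24. Within each library, MMP15 transcripts per kilobase of exon outnumbered those of MMP14 by 1.44, 1.35 and 1.43 to 1 with overexpression and by 1.47, 1.43 and 1.18 to 1 in control libraries. These ratios depend on the lengths used. On the deposited FPKM scale, which divides by other lengths, MMP15 averaged 26.8 and MMP14 15.0 FPKM.

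MMP2 (ENSG00000087245, chr16:55389700-55506691, plus strand), the gelatinase that MMP14 activates, had 0 counts in each of the 6 libraries. A count of 0 allows up to 3 counts in a library, which is 0.212 to 0.277 CPM, and this limit covers counting error only. Transcripts of the activating enzyme MMP14 were thus counted in cells whose MMP2 transcripts stayed under that limit in both groups. Of 20 other MMP genes, 9 also had no count in any library, among them the interstitial collagenase MMP1, the stromelysin MMP3, the matrilysin MMP7 and the gelatinase MMP9.

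ADAM10 (ENSG00000137845, chr15:58588807-58749978, minus strand) had 108, 113 and 123 CPM with overexpression and 134, 119 and 126 CPM in control libraries. Its overexpression replicate 3 lay above control replicate 2, so the groups overlapped by that pair. The means were 115 ± 7.61 and 126 ± 7.22 CPM (SD, n = 3 each). The estimate from edgeR was -0.14 on the log2 scale (standard error 0.092, adjusted p 0.797), with a 95% interval of the fold from 0.783 to 1.05.

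Among the inhibitors, TIMP3 was far above TIMP1 and TIMP2. TIMP3 (ENSG00000100234, chr22:32801701-32863043, plus strand), an inhibitor that binds to the matrix and also blocks ADAM proteases, had 62.9, 63.5 and 57.2 CPM with overexpression and 73.6, 60.0 and 73.4 CPM in control libraries. Control replicate 2 lay between the overexpression libraries and the other control libraries above all of them. By edgeR its log2 fold change was -0.17 (standard error 0.11, adjusted p 0.797), its unadjusted p of 0.155 was the lowest among the 8 genes, and the 95% interval of the fold was 0.745 to 1.06. Without control replicate 2 the log2 fold change was -0.26 with an unadjusted p of 0.038 and an adjusted p of 0.672. By Pearson correlation of log2 CPM over the 6 libraries, the genes most like TIMP3 among 9952 others with a mean of at least 10 CPM were ZC3H4 (r = 0.99), MCUR1 (0.98) and C16orf58 (0.98), and 22 genes exceeded 0.95. With so many genes and 6 points that share library depth, this describes the libraries only.

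TIMP1 (ENSG00000102265, chrX:47582313-47586789, plus strand), a secreted inhibitor of most metalloproteases, had 21, 25 and 26 counts with overexpression and 18, 24 and 46 counts in control libraries. Control replicate 3 stood alone at 3.79 CPM, while the other 5 libraries were between 1.49 and 2.10 CPM. The fitted log2 difference of -0.49 (standard error 0.35, edgeR adjusted p 0.798) became -0.055 without control replicate 3. Exact Poisson intervals (95%, counting error only, not scaled to library size) were 33.7 to 61.4 counts for control replicate 3, the highest library. They were 10.7 to 28.4 for control replicate 1, the lowest in counts, and 13.0 to 32.1 for overexpression replicate 1, the lowest in CPM. The high library thus lay outside counting error of both.

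TIMP2 (ENSG00000035862, chr17:78852977-78925387, minus strand), the inhibitor in the complex that activates MMP2, varied more within groups than between them. It had 54, 99 and 38 counts with overexpression and 32, 29 and 68 counts in control libraries, or 3.82, 7.07 and 3.07 CPM against 2.95, 2.47 and 5.60 CPM. The highest library of each group was 2.30 and 2.27 times the lowest of that group. On the log2 scale edgeR put the difference at 0.34 (standard error 0.40, adjusted p 0.865), with a 95% interval of the fold from 0.671 to 2.39. Leaving out overexpression replicate 2 turned the estimate to -0.095, and leaving out control replicate 3 moved it to 0.79.

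The urokinase system was near the lower limit of what these libraries could measure. PLAU (ENSG00000122861, chr10:73909177-73917497, plus strand) had 25, 5 and 18 counts with overexpression and 18, 9 and 18 counts in control libraries. Replicate 2 was the lowest of its group in both groups. Its log2 fold change by edgeR was -0.13 (standard error 0.54, adjusted p 0.968), and the 95% interval of the fold was 0.387 to 2.17. It turned to 0.31 without overexpression replicate 2 and to 0.079 without control replicate 1.

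PLAUR (ENSG00000011422, chr19:43646095-43670547, minus strand) had 28, 30 and 17 counts with overexpression and 33, 19 and 18 counts in control libraries. Control replicate 1, at 3.05 CPM, was the highest library, and the other 5 were between 1.37 and 2.14 CPM. Here edgeR gave -0.14 on the log2 scale (standard error 0.35, adjusted p 0.938) and a 95% interval of the fold from 0.520 to 1.58. The estimate was 0.25 without control replicate 1, and 0.020 without overexpression replicate 3.

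**Figure D2:**
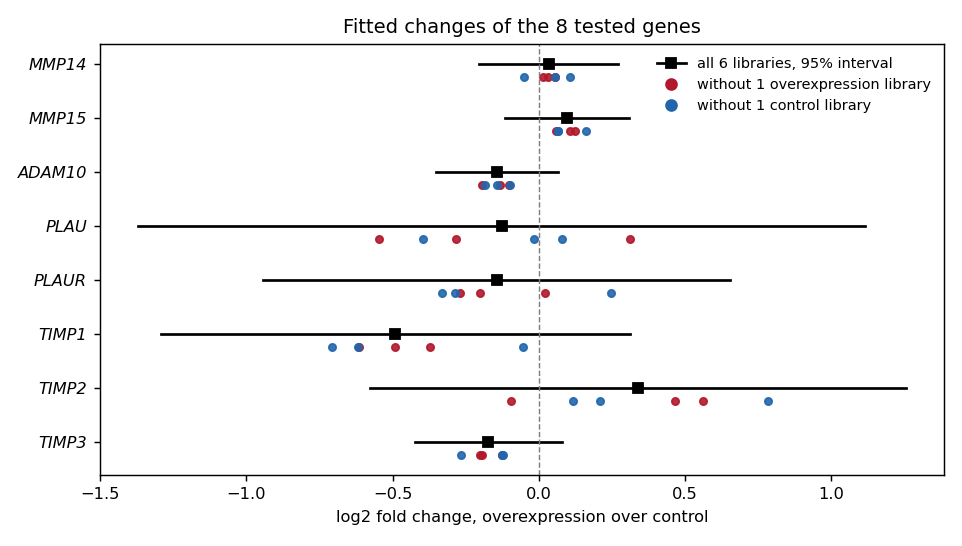
Fitted log2 fold change (overexpression over control) of the 8 tested genes, with black squares and 95% intervals from all 6 libraries and coloured points from fits that each left out 1 library. All 8 intervals include 0, and the direction turned for MMP14, TIMP2, PLAU and PLAUR when 1 library was left out.

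Permuting the libraries in all ways (exact test, two-sided, on log2(CPM + 0.5), 3 against 3) gave p = 0.2 for ADAM10, 0.3 for MMP15 and TIMP3, 0.5 for TIMP1 and TIMP2, 0.8 for PLAU and PLAUR, and 0.9 for MMP14, where 0.1 is the smallest value this design allows. The 4 genes with most counts, MMP14, MMP15, TIMP3 and ADAM10, had standard errors of 0.092 to 0.11, below the median of 0.156 over all genes tested. For these 4 genes the 95% intervals do not reach above a fold of 1.24 or below 0.745. For the 4 genes with few counts the standard errors were 0.35 to 0.54, and the intervals reach from 0.387 to 2.39.

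Levels were compared between genes only per length, as mean CPM per kilobase of merged exons in GENCODE 29. The order was MMP15 at 27.9, MMP14 at 20.3, TIMP3 at 14.1, ADAM10 at 7.45, TIMP1 at 1.39, TIMP2 at 0.739, PLAUR at 0.435, PLAU at 0.423 and MMP2 at 0. The ranges over the 6 libraries did not overlap between neighbours from MMP15 to TIMP1, with the lowest MMP15 value at 25.7 and the highest MMP14 value at 21.9 CPM per kilobase. From TIMP1 down to PLAU the ranges of neighbours overlapped, and MMP2 at 0 lay below them. TIMP1, with a lowest value of 0.965, lay above the highest values of PLAUR (0.683) and PLAU (0.600). On the deposited FPKM scale, which divides by other lengths, MMP14 (12.6 to 16.2 FPKM) and TIMP3 (12.5 to 15.9 FPKM) overlapped as well. The difference in length behind this is 4464 against 6020 bases for MMP14, while TIMP3 has 4603 bases on both scales.

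**Figure D3:**
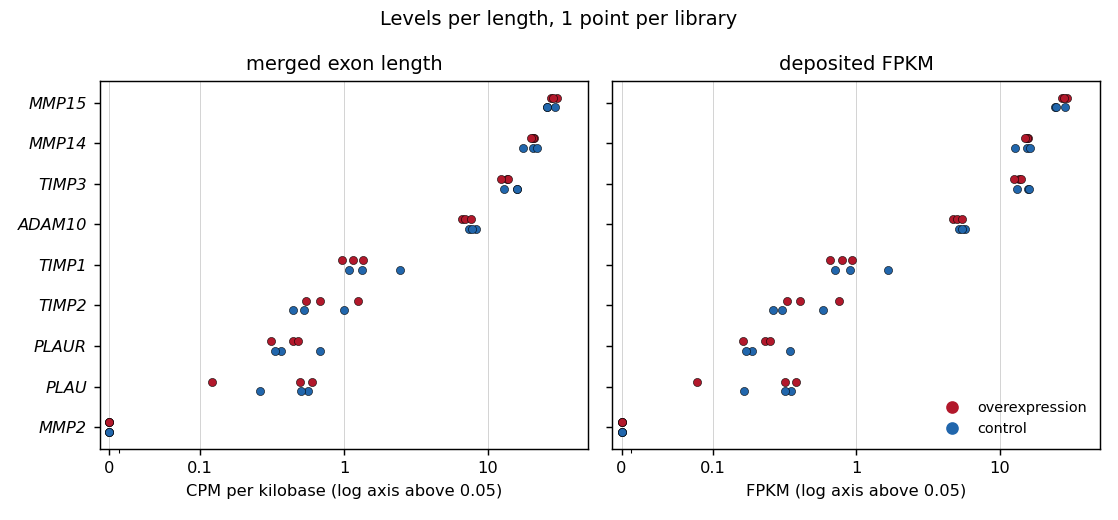
Level per length of the 9 genes in each library, as CPM per kilobase of merged exons at left and as the deposited FPKM at right, both on axes that are logarithmic above 0.05. MMP15 is highest on both scales, MMP14 and TIMP3 are apart at left and overlap at right, and MMP2 is at 0 in all 6 libraries.

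The balance of proteases and inhibitors was described within each library from the same CPM per kilobase. TIMP3 made up 89.3%, 85.1% and 86.7% of the summed TIMP1, TIMP2 and TIMP3 transcripts with overexpression, and 90.9%, 88.1% and 82.2% in control libraries. TIMP4, a gene of the lists and not a member, is left out of these sums. It averaged 3.50 CPM per kilobase (2.69 to 3.94 over the 6 libraries), above TIMP1 and TIMP2. With TIMP4 counted, the share of TIMP3 and the ratio of proteases to inhibitors would be lower. RECK and A2M, other inhibitors of the lists, are left out too, at means of 2.19 and 278 CPM per kilobase. A2M alone stood above MMP14 (20.3) and MMP15 (27.9). Other proteases, such as MMP16 at 2.42, are also left out, so the ratios describe only the genes they name. MMP14 and MMP15 together stood at 3.36, 2.98 and 3.38 times the 3 inhibitors with overexpression and at 2.46, 3.39 and 2.46 times in control libraries. Control replicate 2 had the highest of these 6 ratios and the other 2 control libraries the lowest, so the groups overlapped. MMP14 exceeded TIMP2, its partner in MMP2 activation, by 31.0, 16.4 and 36.5 times with overexpression and by 33.4, 47.0 and 22.1 times in control libraries. These are ratios of transcripts that depend on the lengths used, and no test was made on them.

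The start regions of MMP15, MMP14 and TIMP3, highest in level per length, and of PLAUR, near the lower end, are shown beside their level. The windows of PLAU, which stood below PLAUR in mean level, are not printed. Matches in all 8 windows are counted after the sequences. RefSeq windows of 300 bases (GRCh38.p14), from 250 before to 50 after a transcript start, were found for 7 of the 9 genes, with 8 windows because PLAU has 2 of them. The letters searched on both strands and marked here were GGGCGG (the GC box bound by Sp1-type factors), TGANTCA (the AP-1 motif) and TATAAA. No matches of these shared bases in the windows. Capitals mark the matches, and a GC box on the other strand reads CCGCCC.
MMP15, chr16:58025504-58025803, plus strand: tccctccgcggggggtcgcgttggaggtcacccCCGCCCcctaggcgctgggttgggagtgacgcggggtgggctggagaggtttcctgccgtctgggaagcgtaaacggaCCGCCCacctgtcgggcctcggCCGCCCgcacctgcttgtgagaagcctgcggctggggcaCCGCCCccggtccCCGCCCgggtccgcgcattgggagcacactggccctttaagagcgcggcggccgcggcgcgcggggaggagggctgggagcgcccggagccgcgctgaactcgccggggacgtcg
MMP14, chr14:22836335-22836634, plus strand: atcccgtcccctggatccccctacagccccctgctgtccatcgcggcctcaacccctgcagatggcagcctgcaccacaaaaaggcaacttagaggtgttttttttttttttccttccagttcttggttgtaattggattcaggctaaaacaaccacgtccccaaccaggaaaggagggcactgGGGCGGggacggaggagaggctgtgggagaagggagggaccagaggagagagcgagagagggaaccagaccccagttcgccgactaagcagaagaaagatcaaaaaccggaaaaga
TIMP3, chr22:32801455-32801754, plus strand: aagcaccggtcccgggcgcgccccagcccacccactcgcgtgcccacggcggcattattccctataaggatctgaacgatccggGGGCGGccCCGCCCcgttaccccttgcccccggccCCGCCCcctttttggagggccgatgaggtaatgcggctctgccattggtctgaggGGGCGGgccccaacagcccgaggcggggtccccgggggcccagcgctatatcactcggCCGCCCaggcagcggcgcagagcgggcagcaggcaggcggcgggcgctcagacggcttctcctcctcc
PLAUR, chr19:43670120-43670419, minus strand: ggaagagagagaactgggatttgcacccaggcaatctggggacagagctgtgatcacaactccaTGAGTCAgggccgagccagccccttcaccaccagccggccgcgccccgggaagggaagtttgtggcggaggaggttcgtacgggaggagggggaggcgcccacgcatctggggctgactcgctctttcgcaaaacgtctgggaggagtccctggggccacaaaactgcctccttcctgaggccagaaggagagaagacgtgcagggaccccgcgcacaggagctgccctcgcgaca

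GC boxes were found 5 times each in the windows of MMP15 and TIMP3, once each in those of MMP14 and ADAM10, 2 times in that of TIMP1 and not in that of PLAUR. Of the PLAU windows, 1 held 3 and the other none. Over 35116 RefSeq windows of the same length, 45.0% held at least 1 GC box, 7.71% the AP-1 letters and 11.5% TATAAA. The AP-1 letters were found in the window of PLAUR alone among the 8, and TATAAA in none of them. CCAAT, searched on both strands as well but not marked, was found once each in MMP14, MMP15, TIMP3 and 1 PLAU window. The other windows of the members had none, and 34.6% of all windows held it. CpG pairs numbered 39 in the window of MMP15, 31 in TIMP3, 30 in ADAM10, 18 in PLAUR, 16 in TIMP1, 10 in MMP14 and 28 and 5 in the PLAU windows, beside a median of 14 over all windows. MMP15, TIMP3 and ADAM10, all high in level per length, had the most CpG pairs, while MMP14, second in level, had fewer than PLAUR. A relation between CpG pairs and level was not tested.

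The other genes of matrix proteolysis were described from 9 lists with 92 genes, of which 61 were tested and 16 had no count in any library. edgeR called 0 of the 61 at an adjusted p under 0.05, as did DESeq2 and limma on the genes each could test. At an unadjusted p under 0.05 there were 7 of the 61, or 11.5%, with 4 higher and 3 lower, against the 5.5% of all genes tested. The 2 groups did not overlap for 12 of the 61, or 19.7%, against 12.9%. The median log2 fold change of the 61 was -0.014, with 29 genes positive and 32 negative. The number 7 changed when 1 library was left out, and without overexpression replicate 1 none of the pathway genes reached an unadjusted p under 0.05. Such fits have fewer libraries, so a lost p-value does not show that an estimate moved. Without that library the log2 fold changes of MMP11, PCSK6, S100A10, TSPAN5, TSPAN14 and CST3 were 0.46, -0.22, 0.67, 0.30, -0.67 and 0.35. With all 6 libraries they were 0.53, -0.22, 0.75, 0.31, -0.57 and 0.45.

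**Figure D4:**
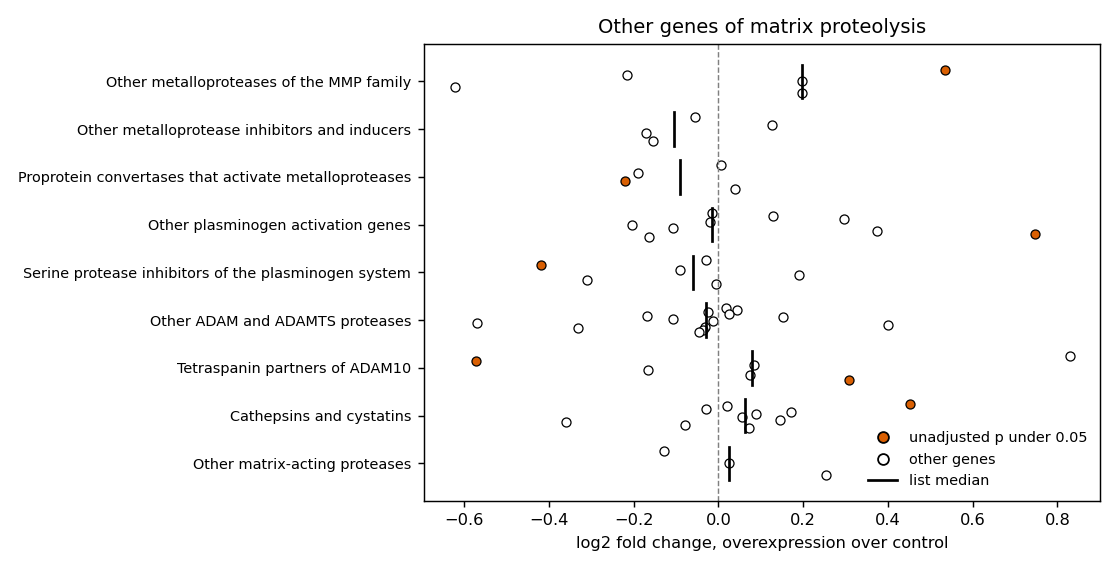
Fitted log2 fold change (overexpression over control) of the 61 tested genes in the 9 lists, 1 point per gene, with filled points for the 7 genes at an unadjusted p under 0.05 and a black bar at each list's median. No point passed an adjusted p under 0.05, and the list medians lie between -0.10 and 0.20.

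Of the MMP family beyond the 3 members, 5 of 20 genes were tested, with 3 positive and 2 negative. MMP11, stromelysin 3, had 7.15, 6.57 and 5.74 CPM with overexpression and 4.98, 4.77 and 3.70 CPM in control libraries. All its overexpression libraries lay above all control libraries. The log2 fold change of 0.53 (standard error 0.20) had an edgeR unadjusted p of 0.025 and an adjusted p of 0.797. MMP16, another membrane-bound enzyme, averaged 27.1 ± 1.04 CPM with overexpression and 31.5 ± 3.33 CPM in control libraries (SD, n = 3 each), which edgeR put at -0.21 on the log2 scale (adjusted p 0.797). MMP19 averaged 0.970 and 1.49 CPM, a log2 fold change of -0.62 with the same adjusted p of 0.797, and its groups did not overlap. Per kilobase, MMP16 stood at 2.42 and MMP11 at 1.06 CPM, both below ADAM10.

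The inhibitors and helpers of metalloproteases included some of the most abundant transcripts of the 9 lists. A2M, the plasma protease inhibitor alpha-2-macroglobulin, averaged 1741 ± 78.2 CPM with overexpression and 1808 ± 78.7 CPM in control libraries (SD, n = 3 each, log2 fold change -0.055, edgeR adjusted p 0.896). BSG, the surface protein basigin that induces metalloproteases, averaged 664 and 608 CPM, with a log2 fold change of 0.13. FURIN, a convertase that cuts the precursor of MMP14, averaged 495 ± 23.8 and 493 ± 44.1 CPM (SD, n = 3 each, log2 fold change 0.0066, edgeR adjusted p 0.991). PCSK6, a related convertase, had 54.6, 57.4 and 51.9 CPM against 60.6, 66.2 and 63.9 CPM. The 2 groups of PCSK6 did not overlap, and its log2 fold change of -0.22 (standard error 0.091) had an unadjusted p of 0.041 and an adjusted p of 0.797.

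Of the serine protease inhibitors of the plasminogen system, 6 of 8 were tested, 1 with a positive and 5 with a negative log2 fold change. SERPINF2, which encodes the plasmin inhibitor alpha-2-antiplasmin, averaged 155 ± 3.35 and 136 ± 13.8 CPM (SD, n = 3 each, log2 fold change 0.19, edgeR adjusted p 0.797). SPINT1, an inhibitor of membrane serine proteases, averaged 7.29 ± 0.508 and 9.04 ± 0.241 CPM (SD, n = 3 each, log2 fold change -0.31, the same adjusted p). The groups of SERPINF2 did not overlap, nor did those of SPINT1.

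S100A10 and ANXA2 form a surface complex that binds plasminogen. S100A10 had 140, 119 and 125 CPM with overexpression and 47.2, 118 and 63.5 CPM in control libraries. The groups did not overlap, although control replicate 2 was level with the lowest overexpression library, and the log2 fold change of 0.75 (standard error 0.29) had an edgeR adjusted p of 0.797 and an unadjusted p of 0.031. The estimate was 1.21 when control replicate 2 was left out, and 0.50 when control replicate 1, the library with the high mitochondrial share, was left out. ANXA2 averaged 263 and 266 CPM, with a log2 fold change of -0.015. LRP1, the receptor that clears complexes of proteases and inhibitors, averaged 725 ± 107 and 836 ± 66.9 CPM (SD, n = 3 each, log2 fold change -0.21, edgeR adjusted p 0.797). Overexpression replicate 1 was the lowest library of LRP1 at 603 CPM, and without it the log2 fold change was -0.088.

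Of the ADAM and ADAMTS genes, 14 of 22 were tested, 5 with a positive and 9 with a negative log2 fold change, and none reached an unadjusted p under 0.05. ADAM9 averaged 394 ± 22.5 and 425 ± 6.01 CPM (SD, n = 3 each, log2 fold change -0.11, edgeR adjusted p 0.805), and its groups did not overlap. ADAMTS1 averaged 56.4 ± 0.560 and 56.9 ± 1.89 CPM (SD, n = 3 each, log2 fold change -0.014). The tetraspanins that carry ADAM10 to the cell surface were all tested. TSPAN14 had 103, 84.6 and 85.7 CPM with overexpression and 163, 163 and 80.6 CPM in control libraries, so its control replicate 3 was the lowest of the 6. Its log2 fold change was -0.57 with an unadjusted p of 0.048, and TSPAN5, at 14.3 and 11.6 CPM on average, had 0.31 with an unadjusted p of 0.049. Both had an adjusted p of 0.797, and the groups did not overlap for TSPAN5. TSPAN17 averaged 21.1 and 23.7 CPM, with a log2 fold change of -0.17 and an adjusted p of 0.856.

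Cathepsins, the lysosomal proteases that some cells release into the matrix, and their cystatin inhibitors were tested for 10 of 12 genes. CST3, the secreted cystatin C, had 121, 108 and 89.3 CPM with overexpression and 61.4, 88.0 and 82.8 CPM in control libraries. The groups did not overlap, though overexpression replicate 3 and control replicate 2 were close. Its edgeR estimate was 0.45 on the log2 scale (standard error 0.16, unadjusted p 0.021, adjusted p 0.797), and 0.31 without control replicate 1. CTSD averaged 527 ± 34.8 and 507 ± 42.0 CPM, and CTSC 271 ± 15.3 and 254 ± 17.6 CPM (SD, n = 3 each). Their log2 fold changes were 0.056 and 0.088. Of the other matrix-acting proteases, MEP1A, which encodes a meprin subunit, averaged 216 and 212 CPM and BMP1, the procollagen C-proteinase, 14.4 and 15.7 CPM, with log2 fold changes of 0.025 and -0.13.

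Reads of overlapping genes could be counted to the members, since the handling of strand is not stated. TIMP3 lies inside SYN3 on the opposite strand, and SYN3 held 111 counts over the 6 libraries against 4881 for TIMP3. TIMP1 lies inside SYN1 in the same way, and SYN1 held 4 counts against 160. C10orf55 shares 916 exon bases with PLAU on the opposite strand and had no count. With each member summed with its overlapping genes, the log2 fold change of TIMP1 was -0.41 and that of TIMP3 -0.17, and no adjusted p passed 0.05.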

How the data were processed

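Gene counts and FPKM of 6 Huh7 libraries were analysed, 3 per plasmid, grouped by sample title. The authors deposited whole-number read counts, not normalized, and FPKM per gene and library. The submitters' processing notes name TopHat2 2.0.9 and hg38. The counting tool, strand handling and annotation release were not given in the sources used here. Of the gene IDs, 98.5% were in GENCODE 29 (GRCh38), 94.8% of these with the same coordinates.

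The main test was edgeR 4.0.16 (R 4.3.3): genes were kept by filterByExpr (min.count 10), scaled by TMM and fitted with glmQLFit and glmQLFTest with group as the only term, two-sided, Benjamini-Hochberg adjusted over 15055 genes. CPM used TMM library sizes. Standard errors and 95% intervals were derived from the F statistic. Alternatives were DESeq2 1.42.0, scaling by RLE or by the upper quartile, other filters, limma 3.58.1 on log2(FPKM + 1), a replicate block, leaving out each library, and overlapping genes summed. The fits were tested on simulated data.

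The members and lists were chosen with earlier results of these data known. Named pathway genes were those with an adjusted p under 0.05, the 10 lowest unadjusted p and the 2 highest mean CPM per list. One gene that this rule names is not reported here. Libraries of one group differed by more than sampling noise (chi-square over degrees of freedom 11.0 or more for each pair). Separate cultures are not stated, so p-values measure the spread between these libraries, which may be technical. A read without molecular identifier is not an independent molecule.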

Additional observations from a re-analysis of the deposited data

How the results depend on the processing

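No member passed an adjusted p under 0.05 in any of the alternatives, with 0 calls in each, and none of the pathway genes did either. The number of genes called over the whole table was 6, and it was 27 with DESeq2 and between 4 and 16 in fits that left out one library, highest without overexpression replicate 2. The 7 pathway genes at an unadjusted p under 0.05 became 4 with DESeq2, 2 with limma on FPKM and 0 to 8 when one library was left out, with 0 without overexpression replicate 1, 1 without overexpression replicate 2, 3 without overexpression replicate 3 and 2 without control replicate 1. For DESeq2 and limma the cause was not tested.

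Of 103 values of the members under the alternatives, 97 kept their direction and 6 turned, all of them when one library was left out. In those fits MMP14 ran from -0.051 to 0.11, TIMP2 from -0.095 to 0.79, PLAU from -0.55 to 0.31 and PLAUR from -0.33 to 0.25. Of 296 values of the named pathway genes, 17 turned. ANXA2 was at 0.000597 and ADAMTS1 at 0.00221 with upper-quartile normalization, and 0.0111 and 0.00948 with limma on FPKM. When one library was left out, FURIN ran from -0.049 to 0.078, ANXA2 from -0.092 to 0.028, ADAMTS1 from -0.041 to 0.00215, CTSD from -0.00905 to 0.0999, BMP1 from -0.22 to 0.00947 and MEP1A from -0.055 to 0.097.

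With a replicate block, 4 genes were called over the whole table and 0 members. Same-numbered libraries did not deviate together, with correlations across genes of -0.029, -0.012 and -0.031. This cannot tell whether same-numbered libraries were prepared together, which the labels do not state. Limma gave no value for TIMP1, TIMP2, PLAU and PLAUR, which did not reach 1 FPKM in 3 libraries, and the filter at a mean of 50 counts left out TIMP1, PLAU and PLAUR. These 4 genes had 93 to 320 counts over the 6 libraries and the widest intervals of the members.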
